A study of Mus musculus with 4 samples.

Results

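The comparison described here is that of fibroblasts expressing Osr2 with fibroblasts expressing Kusabira Orange, each 5 days into reprogramming and each without the inhibitor SB431542. Its members are the genes that reached 1 TPM (the authors' level per transcript length, scaled to the library) in at least 1 of the 2 libraries, and they number 12888 of 26809 usable entries of the deposited table. Just inside this limit was Fgfbp1, whose higher value was 1.00 TPM, and just outside it Hoxaas2, with 0.9998 TPM. Both groups were mouse embryonic fibroblasts of the strain background C57BL/6, infected with the Sendai virus vector SeVdp(KOSMaB), which delivers the reprogramming factors Klf4, Oct4, Sox2 and Myc, and selected with 2 µg/mL blasticidin S. The Osr2 cells carried an Osr2 transgene as well, and the control cells carried Kusabira Orange (hKO), a fluorescent protein, in its place. A further pair of groups of the same study received 10 µM SB431542, an inhibitor of the type I receptors of TGF-β, and enters here only where its reads bear on a value. Each group is 1 library of poly(A) RNA, so no value below has an error between replicates and no test was made. The labels do not give the promoter or vector that carried Osr2, or the number of embryos behind a library.

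Osr2 is a zinc finger transcription factor of the Odd-skipped family that acts in mesenchyme, in the developing palate, limb joints and kidney among other places. In reprogramming, fibroblasts lose their mesenchymal programme before they gain that of pluripotent cells, and transcription factors, surface receptors and secreted signals are the layers through which either programme is held. Genes of the extracellular matrix and targets of TGF-β are therefore only touched on below, and the account follows these 3 layers.

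The Osr2 library held at least 14212579 reads and the control library at least 18003946 reads, as recovered from the steps of the TPM values. A gene listed at 0 could be present at up to 3 reads, which is 0.211 reads in 1000000 in the Osr2 library and 0.167 in the control library. Transcripts of the mitochondrial genome held 2.46% of reads in the Osr2 library and 1.76% in the control library, and the 20 entries with most reads held 16.4% and 6.36%. The median gene stood lower in the Osr2 library, at a ratio of 0.575 (log2 −0.80) over 7867 genes with a mean of at least 5 TPM. All differences below are therefore Osr2 minus control on log2(TPM + 1) after division by that ratio, unless another scale is named. A gene counts as higher or lower when this difference is at least 1 in size. Fold values compare reads, scaled by the same ratio and with nothing added to them, and carry exact 95% counting intervals that cover counting error only.

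The reads of these 2 libraries may not be fully separate from those of the inhibitor-treated ones. Reads of the treated columns were recovered by taking the greatest ratio of treated to untreated values that many entries share as equal reads. The counts that follow rest on this assumption, which was not tested. In no entry did the untreated column then have fewer reads than the treated column of the same cells, and the reads were equal in 252 entries of Osr2 cells and 2844 of control cells. That no entry had fewer follows largely from taking the greatest shared ratio as equal reads, so it cannot show that reads are shared. The treated columns amounted to 11.5% of the reads of the Osr2 library and 73.1% of those of the control library. Between the Osr2 and control libraries used here the reads went either way, with 4721 entries higher in Osr2 cells and 13866 lower in number of reads. Because reads may be shared, a further scale, called after read subtraction, is given. In it the treated reads were taken from the untreated column before scaling. The shift of the median gene was then −0.06. The part of any such shared reads in a result was not tested.

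Osr2 itself (chr15:35296098-35303305, GRCm38.p6) stood at 59.1 TPM (3002 reads) in the Osr2 library, against 0.890 TPM (47 reads) in the control library. This is 116-fold higher (86.6 to 158), a log2 difference of 5.78, with 4.99 as deposited and 5.01 after read subtraction. The library labelled Osr2 was thus the one with the higher Osr2 level, though reads of the transgene and of the endogenous gene are not told apart. Its paralog Osr1 (chr12:9574442-9581500) stood at 15.4 TPM in Osr2 cells and 20.4 TPM in control cells. Its difference was 0.38 relative to the median gene and had the opposite sign on the other scales, −0.38 as deposited and −0.63 after read subtraction.

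Over all genes tested, 2235 of 12888 were higher with Osr2, which is 17.3%, and 1540 were lower, which is 11.9%. On TPM as deposited the shares were 8.15% higher and 32.1% lower, and after read subtraction 18.0% and 12.8%. On all 3 scales together 7.70% were higher and 6.97% lower. These shares are the background for each family below.

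In the share of higher genes and in the median, transcription factors lay closest to all genes and secreted proteins farthest from them. In the share of lower genes all 3 classes lay below the background relative to the median gene, but not on every scale. Of 383 listed transcription factors 260 were tested, and 69 of these (26.5%) were higher and 22 (8.5%) lower, and the median was 0.38 (−0.29 as deposited, 0.14 after read subtraction). Of 352 listed receptors 211 were tested, and 100 (47.4%) were higher and 18 (8.5%) lower, and the median was 0.90 (0.28 as deposited, 0.57 after read subtraction). Of 421 listed secreted proteins 235 were tested, and 134 (57.0%) were higher and 24 (10.2%) lower, and the median was 1.40 (0.70 and 1.02). After read subtraction 42 of the 260 transcription factors were lower, a larger share than the 12.8% of all genes. On all 3 scales 22 transcription factors, 51 receptors and 91 secreted proteins were higher, and 19, 13 and 18 lower. The background on all 3 scales was 7.70% higher and 6.97% lower, and the lower shares of the 3 classes lay near it. A listed gene under 1 TPM in 1 library was tested only through its higher level in the other, so the counts describe the tested members and not whole families. In bulk RNA a lower number of cells of a type and less RNA per cell cannot be told apart.

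**Figure D1:**
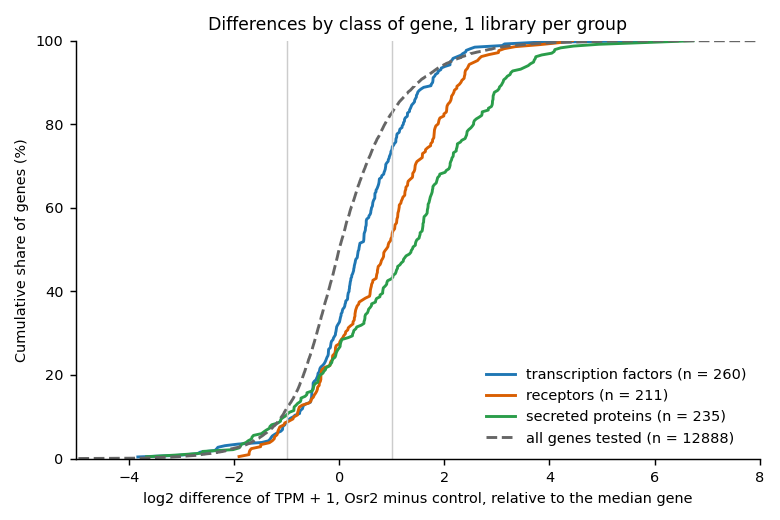
Cumulative share of genes (y axis, %) against the log2 difference of TPM + 1, Osr2 minus control, relative to the median gene (x axis), for 260 transcription factors, 211 receptors, 235 secreted proteins and all 12888 genes tested. The curves of secreted proteins (median 1.40) and receptors (median 0.90) lie to the right of the curve of all genes (median −0.00), and that of transcription factors (median 0.38) lies nearest to it; grey lines mark differences of −1 and 1.

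The cell type on the labels fits the fibroblast markers, which were found in both libraries. Of 12 fibroblast markers 11 were tested and all 11 were higher with Osr2, with a summed level of 9295 TPM in Osr2 cells and 1454 TPM in control cells. Markers of each other cell type summed to less than the fibroblast markers in both libraries. Macrophage markers summed to 74.8 TPM in Osr2 cells and 25.4 TPM in control cells, with 7 of 9 tested members higher and 0 lower. As deposited, and on all 3 scales together, 3 of the 9 were higher. Neural and glial markers summed to 38.0 TPM in Osr2 cells and 188 TPM in control cells, nearly all of it from Stmn2 and Tubb3. Epithelial markers summed to 4.40 TPM in Osr2 cells and 16.3 TPM in control cells, endothelial markers to 5.61 and 10.1 TPM, and skeletal muscle markers to 12.2 and 2.33 TPM, where Myod1, Myog, Myf5 and Pax7 had 0 reads in Osr2 cells. Of 10 markers of pluripotent cells only Tdh was tested, at 0.927 TPM in Osr2 cells and 18.1 TPM in control cells, and 5 had 0 reads in Osr2 cells.

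The promoters of genes at the ends of these layers are shown first, because they are the sequences nearest to the change in RNA. Plagl1 is the highest transcription factor after Osr2 itself, Lrp1 the highest receptor and Igfbp3 the highest secreted protein. Mst1 and Jag2 are the lowest growth factors. Each run spans 250 bases before to 50 bases after a transcription start listed by RefSeq (GRCm38.p6), 5′ to 3′ on the strand of the gene, and capitals mark matches to any of the motifs listed after them.
Plagl1, chr10:13090582-13090881, plus strand: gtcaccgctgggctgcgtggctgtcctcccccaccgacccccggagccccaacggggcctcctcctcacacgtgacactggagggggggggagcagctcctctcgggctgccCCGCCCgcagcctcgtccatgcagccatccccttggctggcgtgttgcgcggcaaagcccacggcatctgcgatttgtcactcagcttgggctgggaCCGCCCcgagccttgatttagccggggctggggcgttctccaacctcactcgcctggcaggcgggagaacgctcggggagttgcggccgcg
Lrp1, chr10:127621099-127621398, minus strand: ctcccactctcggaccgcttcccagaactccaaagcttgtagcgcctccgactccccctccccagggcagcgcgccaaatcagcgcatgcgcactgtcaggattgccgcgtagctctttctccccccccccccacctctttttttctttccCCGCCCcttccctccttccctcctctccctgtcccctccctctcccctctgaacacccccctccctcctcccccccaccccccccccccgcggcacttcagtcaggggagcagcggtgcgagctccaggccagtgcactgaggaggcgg
Igfbp3, chr11:7213874-7214173, minus strand: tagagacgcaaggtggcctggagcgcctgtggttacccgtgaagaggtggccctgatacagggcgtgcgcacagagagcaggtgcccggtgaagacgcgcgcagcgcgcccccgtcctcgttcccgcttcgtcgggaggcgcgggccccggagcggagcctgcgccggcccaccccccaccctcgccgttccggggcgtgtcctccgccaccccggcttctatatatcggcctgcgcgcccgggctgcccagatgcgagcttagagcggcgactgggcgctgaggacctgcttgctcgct
Jag2, chr12:112929446-112929745, minus strand: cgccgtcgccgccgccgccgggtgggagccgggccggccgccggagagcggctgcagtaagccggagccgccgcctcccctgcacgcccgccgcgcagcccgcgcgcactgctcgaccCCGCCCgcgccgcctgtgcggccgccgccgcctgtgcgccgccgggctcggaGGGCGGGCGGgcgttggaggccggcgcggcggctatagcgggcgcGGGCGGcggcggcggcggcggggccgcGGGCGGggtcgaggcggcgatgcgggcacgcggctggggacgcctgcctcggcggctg
Mst1, chr9:108080186-108080485, plus strand: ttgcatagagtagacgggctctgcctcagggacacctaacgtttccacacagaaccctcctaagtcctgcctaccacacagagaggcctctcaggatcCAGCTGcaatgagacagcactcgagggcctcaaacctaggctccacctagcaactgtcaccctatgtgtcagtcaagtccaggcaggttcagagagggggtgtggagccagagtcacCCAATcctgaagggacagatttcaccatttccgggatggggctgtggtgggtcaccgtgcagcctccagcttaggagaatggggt

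On either strand, 8 motifs were searched in the promoters of 9759 tested genes, and matches may overlap. The GC box GGGCGG matched Plagl1 at 2 places, Lrp1 at 1 and Jag2 at 5, and it was held by 66.4% of all these promoters. Mst1 held the E-box CAGCTG and the CCAAT box CCAAT, which 14.5% and 38.9% of promoters hold. None of the 8 motifs matched in the Igfbp3 window, whose GC content was 71.7%. The E-box was held by 18.4% of 1574 promoters of higher genes and 13.6% of 1001 promoters of lower genes, and the CCAAT box by 35.5% and 46.1%. The GC box was in 68.2% and 61.6% of them, the AP-1 site TGANTCA in 6.23% and 4.80%, the Tead site GGAATG in 14.2% and 11.5%, the Smad box CAGAC in 48.5% and 47.8%, the TATA box TATAAA in 7.81% and 8.29%, and the word CAGTAGC, searched as an Odd-skipped site, in 2.73% and 3.40%. Their median GC content was 62.0% and 59.3%, so the base composition of the compared promoters differs too. A match describes letters in a window and shows no binding.

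Among transcription factors, the genes highest with Osr2 were a zinc finger gene and homeobox genes. Plagl1 (chr10:13090832-13131694), an imprinted zinc finger factor that slows growth, stood at 36.5 TPM in Osr2 cells and 3.81 TPM in control cells, 16.7-fold higher (15.1 to 18.5). Irx1 (chr13:71958232-71963723), an Iroquois homeobox factor of limb and lung patterning, stood at 86.8 TPM in Osr2 cells and 16.2 TPM in control cells, 9.34-fold higher (8.56 to 10.2). Prrx2 (chr2:30845064-30881251), a homeobox factor of limb and facial mesenchyme, stood at 39.4 TPM in Osr2 cells and 7.10 TPM in control cells, 9.66-fold higher (8.31 to 11.3). On all 3 scales these genes were higher by at least 1, with 2.98 for Plagl1, 2.13 for Irx1 and 2.25 for Prrx2 after read subtraction.

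The homeobox list as a whole had 15 members higher and 4 lower of 39, with a median of 0.47 that was −0.18 as deposited, and 4 were higher and 2 lower on all 3 scales. At its lower end Isl1, a LIM homeobox factor of motor neurons and heart progenitors, stood at 0.270 TPM in Osr2 cells and 6.27 TPM in control cells (−2.31). Alx1, a homeobox factor of the face, stood at 0.0743 TPM in Osr2 cells and 1.64 TPM in control cells (−1.23, but −0.63 after read subtraction). The Iroquois genes did not move alike. Irx3 was at 9.39 and 3.30 TPM in Osr2 and control cells (2.01) and Irx2 at 67.8 and 38.0 TPM (1.61, but 0.82 as deposited), while Irx5 was at 12.7 and 17.5 TPM, with 0.32 relative to the median gene but −0.44 as deposited. Irx2, Irx3 and Irx5 were chosen after their values were seen.

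Basic helix-loop-helix factors held the lowest gene of the class and several of the highest. Msc (musculin, chr1:14753344-14756089), a repressor of this family, stood at 1.15 TPM (41 reads) in Osr2 cells and 41.6 TPM (1544 reads) in control cells, 20.8-fold lower (15.3 to 29.1), a difference of −3.83. Hand1 (chr11:57828713-57832147), a factor of heart and trophoblast, stood at 3.11 TPM in Osr2 cells and 40.6 TPM in control cells (−2.70). After read subtraction these values were −4.95 and −3.87. Atoh8, at 16.1 TPM in Osr2 cells and 4.16 TPM in control cells, differed by 2.49. Epas1, the hypoxia-inducible factor of endothelium, at 5.61 TPM in Osr2 cells and 1.03 TPM in control cells, differed by 2.41. Id3, which lacks a DNA-binding region and holds other members of the family off DNA, reached 235 TPM in Osr2 cells and 79.5 TPM in control cells (2.35, but 0.79 after read subtraction). Of 48 members tested 9 were higher and 4 lower, with 4 and 3 on all 3 scales and 6 and 12 as deposited, and the median of 0.20 was −0.58 as deposited and −0.02 after read subtraction.

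Zinc finger factors split by family. Of 38 tested 11 were higher and 6 lower, and on all 3 scales 5 were higher and 6 lower. As deposited 5 were higher and 7 lower, and the median of 0.67 was −0.06. Sall4, which maintains pluripotent cells, stood at 0.180 TPM (7 reads) in Osr2 cells and 7.19 TPM (290 reads) in control cells, 22.9-fold lower (10.98 to 57.5). Sall3 (−1.92), Insm1 (−1.31), Zic2 (−1.27) and Zic5 (−1.11) were lower too, and these were chosen after their values were seen. Zic1 went the other way at 1.30, from low levels of 1.59 TPM in Osr2 cells and 0.530 TPM in control cells, and at 0.76 as deposited.

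Nuclear receptors, the transcription factors gated by hormones and lipids, had 8 members higher and 1 lower of 28, with a median of 0.43 that was −0.29 as deposited and −0.02 after read subtraction. The lower one was Nr0b1 (Dax1, chrX:86191775-86195947), an orphan receptor of adrenal and pluripotent cells, at 4.14 TPM (105 reads) in Osr2 cells and 67.3 TPM (1773 reads) in control cells, 9.34-fold lower (7.67 to 11.5). The treated column of Osr2 cells also held 105 reads, so after subtraction 0 reads were left in Osr2 cells, against 448 in control cells. Rara, a receptor of retinoic acid, stood at 17.4 TPM in Osr2 cells and 7.79 TPM in control cells (1.83), and the early response receptor Nr4a1 at 31.0 TPM in Osr2 cells and 15.0 TPM in control cells (1.78). After read subtraction Rara differed by 1.14 and Nr4a1 by 0.92, and on all 3 scales 1 member was higher and 1 lower.

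The T-box and GATA list had 5 members higher and 1 lower of 14, with a median of 0.87 (0.19 as deposited, 0.34 after read subtraction), and 2 and 1 on all 3 scales. Zfpm1 (Fog1), a cofactor of GATA factors, stood at 17.8 TPM in Osr2 cells and 4.35 TPM in control cells (2.58), and Tbx5, a forelimb and heart factor, at 2.84 TPM in Osr2 cells and 0.719 TPM in control cells (1.79). Trps1, an atypical GATA repressor of cartilage and hair, was lower, at 0.820 TPM in Osr2 cells and 5.73 TPM in control cells (−1.47). The Runx, Tead, Nfi, Ebf and Mef2 list had 7 members higher and 2 lower of 27, and 3 and 2 on all 3 scales. Tead3, a partner of Yap1, differed by 1.94 and Ebf1 by 1.93 (1.18 for each after read subtraction), while Tfap2a and Tfap2c, factors of ectoderm and trophoblast, differed by −1.07 and −1.02.

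The medians of forkhead and Ets factors lay near that of all genes. Of 20 forkhead factors 5 were higher and 0 lower, none of the 5 on all 3 scales, with Foxf2 (1.47) and Foxc2 (1.43, but 0.35 after read subtraction) the highest, and the median was −0.08 (−0.84 as deposited). Of 19 Ets factors 2 were higher and 3 lower, and the median was 0.11 (−0.52 as deposited). Elk3 stood at 12.3 TPM in Osr2 cells and 4.04 TPM in control cells (2.15), and Fli1, of blood and endothelium, at 1.49 TPM in Osr2 cells and 0.275 TPM in control cells (1.496, but 0.97 as deposited). The lower ones included the epithelial members Ehf, at 0.0511 TPM (4 reads) in Osr2 cells and 4.60 TPM (374 reads) in control cells, and Elf3, at 0 reads in Osr2 cells and 47 reads in control cells, at least 8.66-fold lower against a floor of 3 reads. Epithelial markers moved the same way, with 0 higher and 3 lower of 5 tested, and their part in the Ets values was not tested.

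Stat, Irf and NF-κB factors had 7 members higher and 1 lower of 27, with a median of 0.47 that was −0.28 as deposited and 0.14 after read subtraction, and 2 were higher and 1 lower on all 3 scales. Nfatc4, a calcium-regulated factor, stood at 33.9 TPM in Osr2 cells and 12.4 TPM in control cells (2.17). Cebpa, a factor of adipocytes and myeloid cells, stood at 9.30 TPM in Osr2 cells and 2.97 TPM in control cells (2.12, but 1.40 after read subtraction). Irf1, the interferon-induced factor, was the lower one, at 5.84 TPM in Osr2 cells and 27.4 TPM in control cells, 2.69-fold lower (2.39 to 3.04).

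**Figure D2:**
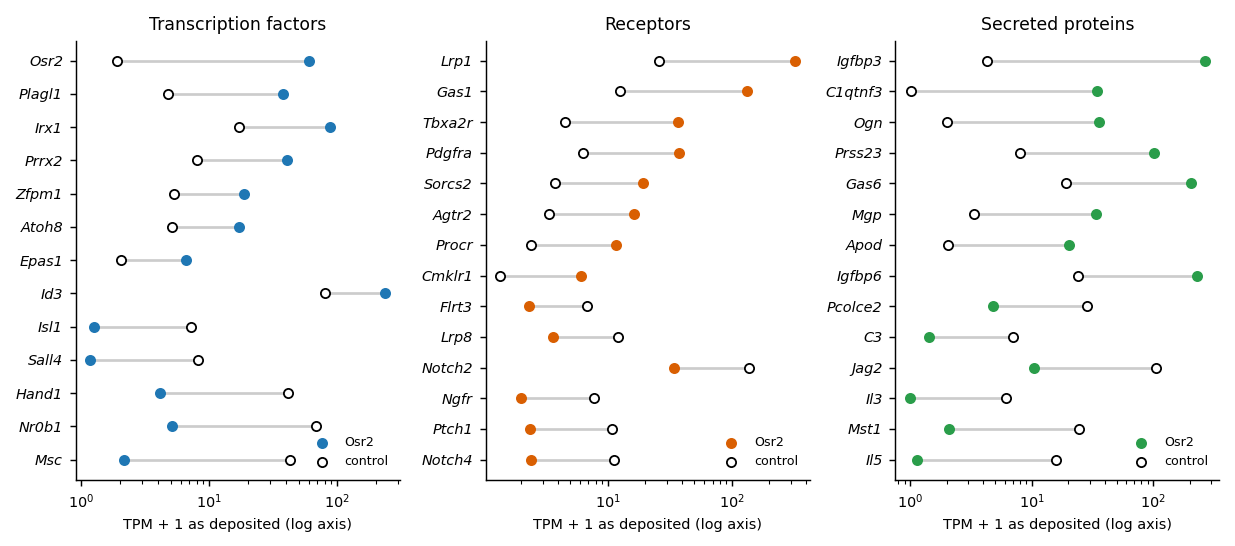
TPM + 1 as deposited (x axis, log scale) in the Osr2 library (filled points) and the control library (open points), 1 library each, for the 8 highest and 6 lowest transcription factors, receptors and secreted proteins among members of at least 5 TPM and the same sign on the 3 scales, with 1 of the lowest not shown. Osr2 lies at 59.1 TPM in Osr2 cells and 0.890 TPM in control cells, and Igfbp3 and C1qtnf3 show the widest gaps among secreted proteins.

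In each of the 7 receptor families the share of members higher with Osr2 was above the background of 17.3% relative to the median gene, although the medians of TNF and guidance receptors were negative as deposited (−0.41 and −0.03). The highest was Lrp1 (chr10:127538157-127621148), an endocytic receptor that clears proteases and matrix proteins, at 322 TPM (79916 reads) in Osr2 cells and 24.9 TPM (6438 reads) in control cells. It was 22.5-fold higher (21.9 to 23.0), a difference of 4.43. Of 37 endocytic, scavenger and pattern recognition receptors 23 were higher and 3 lower, and the median was 1.14, and 12 were higher on all 3 scales. Among them Sorcs2, a sorting receptor that also binds proneurotrophins, stood at 18.4 TPM in Osr2 cells and 2.74 TPM in control cells (3.14), and Procr, the endothelial receptor of protein C, at 10.8 TPM in Osr2 cells and 1.42 TPM in control cells (3.03). At the lower end, Lrp8, a receptor of reelin and apolipoprotein E, stood at 2.60 TPM in Osr2 cells and 11.2 TPM in control cells (−1.15). Tfrc, the transferrin receptor, stood at 5.13 TPM in Osr2 cells and 31.5 TPM in control cells (−1.71) but differed by 0.21 after read subtraction.

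Receptor tyrosine kinases had 18 members higher and 0 lower of 35, with a median of 1.10 (0.46 as deposited, where 9 were higher and 2 lower, and 0.67 after read subtraction), and 8 were higher on all 3 scales. Pdgfra (chr5:75151322-75198206), the PDGF receptor of mesenchymal cells, stood at 36.3 TPM (5100 reads) in Osr2 cells and 5.30 TPM (774 reads) in control cells, 11.9-fold higher (11.1 to 12.9). Axl, a receptor of Gas6, stood at 251 TPM in Osr2 cells and 82.2 TPM in control cells, 5.31-fold higher (5.15 to 5.47), a difference of 2.39 that was 1.23 after read subtraction. Receptors for insulin, EGF and HGF stayed near the median gene, with Insr at 0.07, Egfr at −0.07 and Met at 0.04, and these were chosen after their values were seen.

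G protein-coupled receptors had 30 members higher and 3 lower of 63, and 13 higher and 3 lower on all 3 scales. Tbxa2r, the thromboxane receptor, stood at 35.5 TPM in Osr2 cells and 3.50 TPM in control cells, 17.7-fold higher (14.3 to 21.97). Agtr2, the type 2 receptor of angiotensin, stood at 15.2 TPM in Osr2 cells and 2.35 TPM in control cells, 11.3-fold higher (9.23 to 13.8). Cmklr1, the chemerin receptor, stood at 5.06 TPM (121 reads) in Osr2 cells and 0.362 TPM (9 reads) in control cells, 24.3-fold higher (12.4 to 54.5). Lower members included Adgrb2 (−1.18) and the histamine receptor Hrh1 (−1.17), from levels under 5 TPM, and Hrh1 was chosen after its values were seen.

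Cytokine receptors had 13 members higher and 2 lower of 28, and 7 and 1 on all 3 scales. Ghr, the growth hormone receptor, stood at 14.6 TPM in Osr2 cells and 3.50 TPM in control cells (2.56). Il15ra, at 0.337 TPM in Osr2 cells and 2.98 TPM in control cells, differed by −1.33, though by −0.70 after read subtraction. Of 19 receptors of the TNF family 6 were higher and 4 lower. Tnfrsf11b, osteoprotegerin, a decoy receptor that restrains osteoclasts, stood at 5.24 TPM in Osr2 cells and 1.07 TPM in control cells (2.29). Tnfrsf14 stood at 4.56 TPM in Osr2 cells and 1.05 TPM in control cells (2.12). On the other side, Tnfrsf8 (−1.70), Tnfrsf13c (−1.49) and the neurotrophin receptor Ngfr (−1.49) were lower, with Ngfr at 1.01 TPM in Osr2 cells and 6.77 TPM in control cells.

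Notch and Hedgehog receptors were split within the pathway. Of 12 members 5 were higher and 4 lower (33.3%, against a background of 11.9%), and 3 and 4 on all 3 scales. For Hedgehog, the coreceptors that help the ligand bind were higher. Gas1 (chr13:60174405-60177535) stood at 131 TPM in Osr2 cells and 11.7 TPM in control cells, 19.6-fold higher (17.8 to 21.5). Cdon stood at 11.05 TPM in Osr2 cells and 3.28 TPM in control cells (2.24). Boc, a further coreceptor, differed by 1.74 (0.99 as deposited) and was chosen after its values were seen. The receptor Ptch1 and the decoy Hhip, which bind and hold the ligand and are themselves induced by the pathway, were lower. Ptch1 stood at 1.38 TPM in Osr2 cells and 9.84 TPM in control cells, 4.09-fold lower (3.61 to 4.66), and Hhip at 0.267 TPM in Osr2 cells and 4.48 TPM in control cells, 9.64-fold lower (6.82 to 14.1). The signal transducer Smo differed by 0.59 relative to the median gene and by −0.19 as deposited. Of the pathway's factors, Gli2 differed by 1.16 and Gli3 by 0.35 (0.46 and −0.38 as deposited). Smo, Gli2 and Gli3 were also chosen after their values were seen.

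For Notch, Notch3, the receptor of mural and mesenchymal cells, stood at 19.3 TPM in Osr2 cells and 8.87 TPM in control cells (1.81). Notch2 (chr3:98013538-98150367) stood at 33.0 TPM in Osr2 cells and 136 TPM in control cells, 2.36-fold lower (2.29 to 2.44), and Notch4 (chr17:34564286-34588543) at 1.41 TPM in Osr2 cells and 10.3 TPM in control cells, 4.199-fold lower (3.56 to 4.98). Notch1 lay between, at 5.75 TPM in Osr2 cells and 4.79 TPM in control cells (0.93). Hes1, a target of Notch, stood at 44.5 TPM in Osr2 cells and 17.2 TPM in control cells (2.11), and Hey1, another, at 1.03 TPM in Osr2 cells and 2.21 TPM in control cells (−0.20). Notch1, Notch3, Hes1 and Hey1 were chosen after their values were seen.

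**Figure D3:**
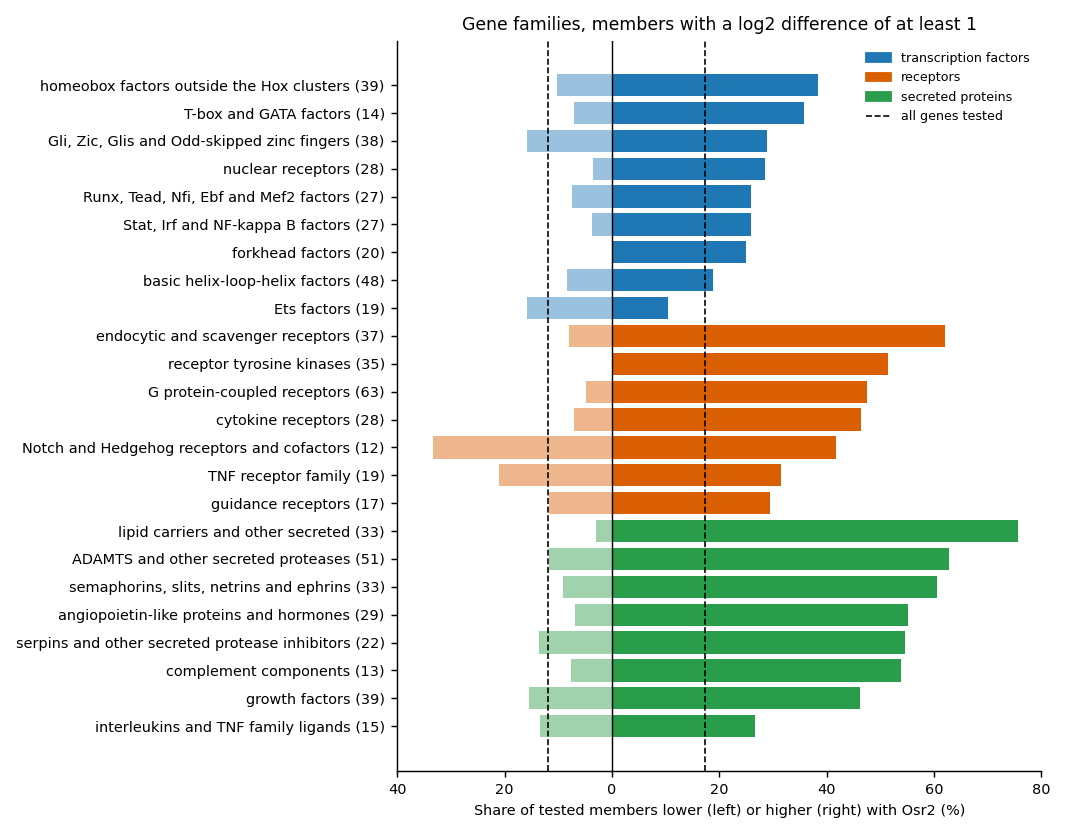
Share of tested members (x axis, %) with a log2 difference of at least 1 in size, lower with Osr2 to the left (pale bars) and higher to the right (full bars), for 24 families with the number tested in brackets. Dashed lines give the shares over all 12888 genes tested, 11.9% lower and 17.3% higher; lipid carriers and other secreted proteins reached 75.8% higher, and Notch and Hedgehog receptors 33.3% lower.

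Secreted proteins held the widest differences of the 3 classes among higher genes. Igfbp3 (chr11:7206086-7215498), which binds insulin-like growth factors, stood at 264 TPM (11600 reads) in Osr2 cells and 3.33 TPM (152 reads) in control cells, 138-fold higher (118 to 163), a difference of 6.73. C1qtnf3 (chr15:10952119-10980162), a secreted relative of C1q and adiponectin made by cartilage and fat, had 1211 reads in Osr2 cells and 1 read in control cells (5.86). With 1 read in control cells its ratio of 2190 has a counting interval of 392 to 86573. Ogn, the small proteoglycan osteoglycin, stood at 34.9 TPM in Osr2 cells and 1.02 TPM in control cells, 59.8-fold higher (43.3 to 84.9). After read subtraction these genes differed by 5.90, 5.64 and 5.27.

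The list of lipid carriers and other abundant secreted proteins had 25 members higher and 1 lower of 33, with a median of 2.31 (1.62 as deposited, 1.80 after read subtraction). Mgp, an inhibitor of calcification, stood at 32.7 TPM in Osr2 cells and 2.37 TPM in control cells (4.10), and Apod, a lipocalin that carries lipids, at 19.4 TPM in Osr2 cells and 1.04 TPM in control cells (4.09). Igfbp6 stood at 227 TPM in Osr2 cells and 23.0 TPM in control cells (4.04). The tested binding proteins of insulin-like growth factors beside Igfbp3 and Igfbp6 were higher too, with Igfbp7 at 3.74, Igfbp2 at 3.73, Igfbp5 at 2.66 and Igfbp4 at 2.40, each of them also by at least 1 on the other scales, and these were chosen after their values were seen. The lower member was Slurp1, at 0.170 TPM in Osr2 cells and 2.15 TPM in control cells (−1.28). Ptx3, a soluble pattern recognition protein chosen after its values were seen, stood at 676 TPM in Osr2 cells and 206 TPM in control cells (2.51), but differed by −2.69 after read subtraction.

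Growth factors had 18 members higher and 6 lower of 39, with a median of 0.84 (0.07 as deposited), and 8 and 5 on all 3 scales. Gas6 (chr8:13465374-13494535), the ligand of Axl, Mertk and Tyro3, stood at 205 TPM (7345 reads) in Osr2 cells and 18.3 TPM (681 reads) in control cells, 19.5-fold higher (18.0 to 21.1). Ptn, pleiotrophin, stood at 370 TPM in Osr2 cells and 48.4 TPM in control cells, 13.3-fold higher (12.8 to 13.9), a difference of 3.71 that was 2.34 after read subtraction. Lower were Mst1 (chr9:108080409-108085027), the ligand of the receptor Ron, at 1.10 TPM (35 reads) in Osr2 cells and 23.6 TPM (778 reads) in control cells, 12.3-fold lower (8.76 to 17.8), and Jag2 (chr12:112907803-112929812), a membrane-bound Notch ligand, at 9.44 TPM (922 reads) in Osr2 cells and 104 TPM (10590 reads) in control cells, 6.35-fold lower (5.94 to 6.80). After read subtraction Mst1 differed by −3.09 and Jag2 by −4.19.

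Among hormone-like proteins, 16 of 29 were higher and 2 lower, and the median was 1.09 (0.39 as deposited), with 9 and 2 on all 3 scales. A relative of C1qtnf3, C1qtnf7, had 438 reads in Osr2 cells and 5 reads in control cells (3.70), and C1qtnf2 and C1qtnf1 differed by 3.17 and 2.84. The lower members were Pdyn, the precursor of dynorphin (−1.66), and Erfe, erythroferrone (−1.32). C1qtnf1 and C1qtnf2 were chosen after their values were seen.

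Interleukins and TNF ligands had the lowest median of the secreted families, at −0.06 (−0.75 as deposited, −0.25 after read subtraction). Of 15 tested 4 (26.7%) were higher and 2 lower. The same numbers were higher and lower on all 3 scales, where the background was 7.70% higher and 6.97% lower. Il5 (chr11:53720794-53725103), a cytokine of eosinophils, had 3 reads in Osr2 cells and 330 reads in control cells, 60.8-fold lower (20.6 to 296.5). Il3, of blood progenitors, had 0 reads in Osr2 cells and 47 reads in control cells, at least 8.66-fold lower against a floor of 3 reads. Of the control reads, 21 of Il5 and 5 of Il3 were left after subtraction of the treated column. The control side of these ratios thus rests largely on reads that may also stand in that column. Tnfsf12, the ligand Tweak, was higher, at 10.4 TPM in Osr2 cells and 2.44 TPM in control cells (2.46), as was Ctf1, cardiotrophin, at 4.53 TPM in Osr2 cells and 0.978 TPM in control cells (2.17).

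Secreted proteases and their inhibitors both had more members higher than lower. Of 51 ADAMTS and other secreted proteases 32 were higher and 6 lower (median 1.61), with 23 higher and 4 lower on all 3 scales. Of 22 serpins and other inhibitors 12 were higher and 3 lower (median 1.28), with 9 higher and 1 lower on all 3 scales. Prss23, a serine protease, stood at 101 TPM in Osr2 cells and 7.05 TPM in control cells, 24.97-fold higher (22.5 to 27.8). Ctsk, cathepsin K, the collagen-cleaving protease of osteoclasts and fibroblasts, stood at 36.3 TPM in Osr2 cells and 3.45 TPM in control cells (3.85). Among inhibitors, Serpinf1, the antiangiogenic PEDF, stood at 190 TPM in Osr2 cells and 26.4 TPM in control cells (3.60). Serping1, the C1 inhibitor, stood at 34.9 TPM in Osr2 cells and 4.37 TPM in control cells (3.53). Lower were Pcolce2, an enhancer of procollagen processing, at 3.85 TPM in Osr2 cells and 27.8 TPM in control cells (−1.90), Adamts20 (−1.87), Serpini1 (−1.48) and Serpina3g (−1.33). After read subtraction Pcolce2 differed by −1.09 and Serpini1 by −0.81. Pcolce, chosen after its values were seen as the paralog of Pcolce2, stood at 189 TPM in Osr2 cells and 41.9 TPM in control cells (2.94).

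Of 13 complement components 7 were higher and 1 lower, and 5 and 1 on all 3 scales. The chains of C1q, made mainly by macrophages, were among the higher ones, with C1qa at 9.87 TPM (144 reads) in Osr2 cells and 0.462 TPM (7 reads) in control cells (3.64) and C1qb at 20.2 TPM in Osr2 cells and 3.15 TPM in control cells (3.12, but 2.05 after read subtraction). Macrophage markers include these genes, so the lists share members, and the part of macrophages in the complement values was not tested. Of 9 macrophage markers tested, 7 were higher and 0 lower, and 3 were higher on all 3 scales. The leukocyte genes Itgam and Ptprc, chosen after their values were seen, had few reads in either library. Itgam had 3 reads in Osr2 cells and 0 in control cells, and Ptprc 22 reads in Osr2 cells and 15 in control cells. C3, the central component, was lower, at 0.430 TPM in Osr2 cells and 6.08 TPM in control cells, 8.13-fold lower (5.65 to 12.1).

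**Figure D4:**
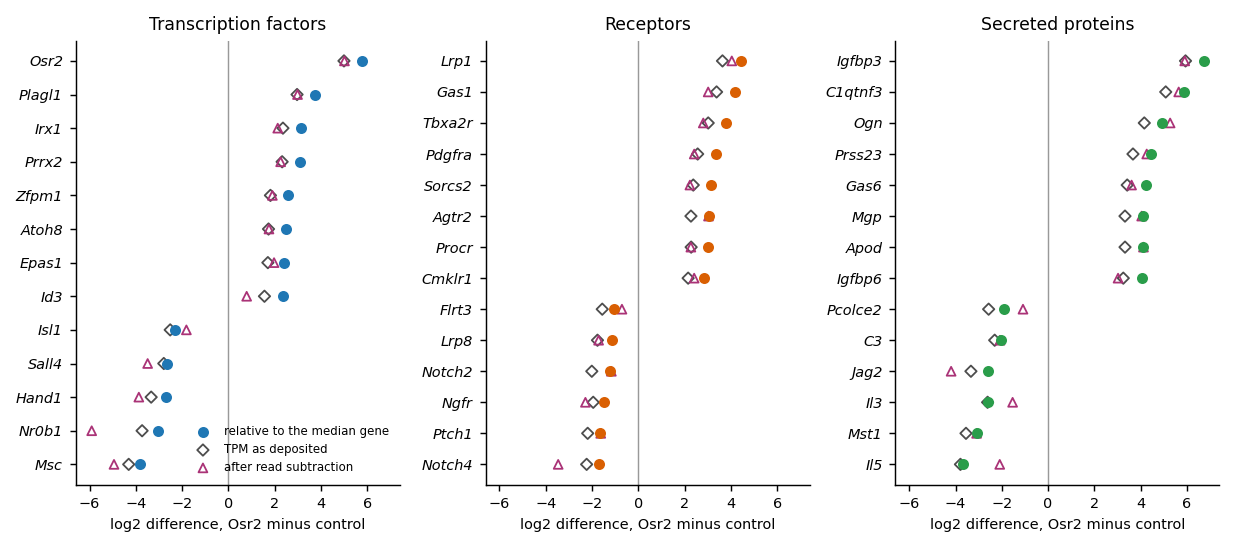
Log2 difference of TPM + 1, Osr2 minus control (x axis), for the same 41 genes on 3 scales: relative to the median gene (filled circles), on TPM as deposited (diamonds) and after read subtraction (triangles). Every gene shown keeps its sign, as the choice of genes requires; Nr0b1 moves from −3.06 to −5.91 after read subtraction and Id3 from 2.35 to 0.79.

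Guidance cues and their receptors were compared by system, with the systems chosen after the values were seen. Semaphorins, slits, netrins and ephrins had 20 members higher and 3 lower of 33 (13 and 2 on all 3 scales), with a median of 1.46, and guidance receptors 5 higher and 2 lower of 17 (4 and 0 on all 3 scales), with a median of 0.64 that was −0.03 as deposited. Slit2 (chr5:47981291-48307735), a repellent ligand, stood at 39.4 TPM in Osr2 cells and 6.24 TPM in control cells, 10.99-fold higher (10.5 to 11.5). Sema3d, of the secreted class 3 semaphorins, stood at 6.91 TPM in Osr2 cells and 0.367 TPM in control cells, 32.7-fold higher (24.3 to 45.1). Of 6 class 3 semaphorins tested 5 were higher, against 1 of their 7 receptors, Nrp1, at 16.0 TPM in Osr2 cells and 5.70 TPM in control cells (2.11). Nrp2 differed by −0.16 and the plexins by −0.13 to 0.98. Lower were the transmembrane semaphorins Sema6d (−1.77) and Sema4f (−1.67).

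The receptors of Slit and netrin went in either direction. Robo2 stood at 3.78 TPM in Osr2 cells and 0.844 TPM in control cells (2.04) and Robo1 at 2.16 TPM in Osr2 cells and 7.25 TPM in control cells (−0.79). Unc5b, a receptor of netrins, stood at 30.6 TPM in Osr2 cells and 8.90 TPM in control cells (2.46), while Dcc, the receptor of attraction, had 4 reads in Osr2 cells and 216 reads in control cells, 29.9-fold lower (11.5 to 111). After subtraction 0 reads were left in Osr2 cells and 14 in control cells, and the difference of −1.03 became −0.33. Among netrins, Ntn4 stood at 21.6 TPM in Osr2 cells and 3.41 TPM in control cells (3.13) and Ntn1 at 7.404 TPM in Osr2 cells and 24.2 TPM in control cells (−0.86).

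In the growth factor systems, ligands and receptors were often higher together. All 4 VEGF ligands were higher, with Vegfd at 32.9 TPM in Osr2 cells and 7.89 TPM in control cells (2.71), as were the receptors Flt1 (2.19) and Flt4 (1.74), though after read subtraction Vegfb differed by 0.87 and Vegfc by 0.01 (0.65 as deposited). In the PDGF system 3 of 4 ligands and both receptors were higher, but of the ligands only Pdgfd on all 3 scales, where Pdgfa (1.03) differed by 0.25 as deposited and 0.08 after read subtraction. Pdgfb, at 3.03 TPM in Osr2 cells and 18.4 TPM in control cells, was lower (−1.63). Gas6 and protein S (Pros1, 1.37) were higher with their receptors Axl (2.39) and Mertk (1.10), and Tyro3 differed by 0.31. As deposited Pros1 differed by 0.61 and Mertk by 0.60. In Notch, Jag1 stood at 39.8 TPM in Osr2 cells and 33.6 TPM in control cells (1.02, but 0.24 as deposited), so the ligand with the higher level was Jag1 in Osr2 cells and Jag2 in control cells, in TPM within each library. Over the 9 systems, with each gene counted once, 24 of 32 ligands were higher and 2 lower, and 14 of 32 receptors were higher and 3 lower. Over all genes tested 17.3% were higher and 11.9% lower. As deposited 15 ligands were higher and 4 lower, with 11 receptors higher and 5 lower. On all 3 scales 14 ligands and 10 receptors were higher, against a background of 7.70%. The systems hold tested genes only. Some reached 1 TPM only in Osr2 cells, such as Sema3d and Flt4, and some only in control cells, such as Dcc.

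**Figure D5:**
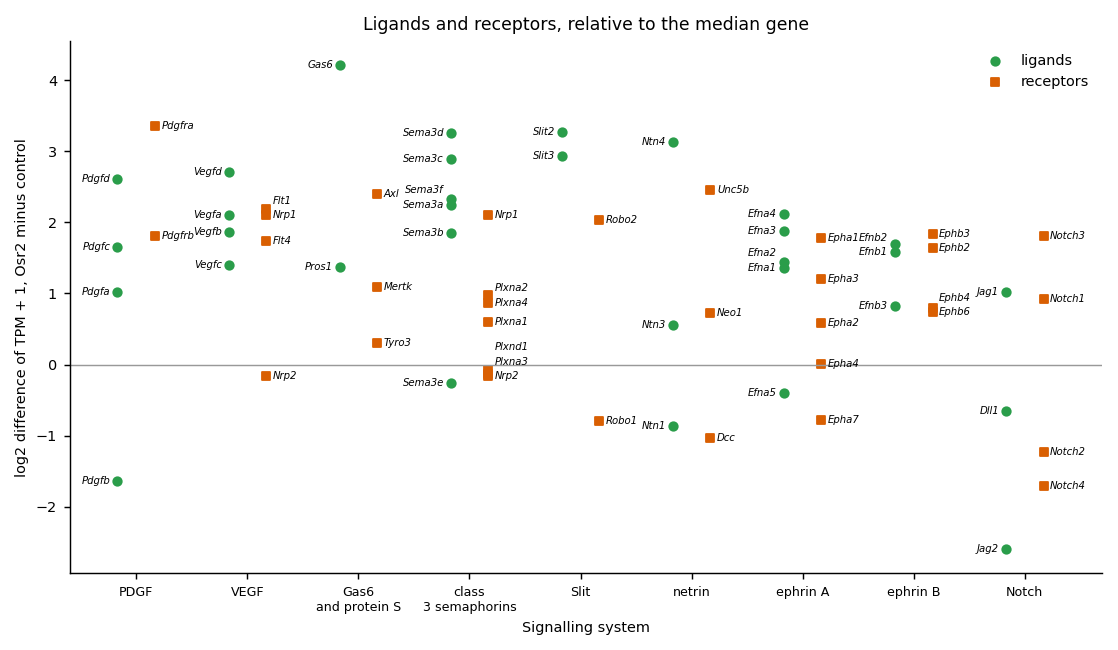
Log2 difference of TPM + 1, Osr2 minus control, relative to the median gene (y axis), for ligands (circles) and receptors (squares) of 9 signalling systems (x axis), 1 library per group. Gas6 (4.21) is the highest ligand and Pdgfra (3.35) the highest receptor, and Jag2 (−2.60) and Notch4 (−1.71) are the lowest.

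Among all genes of at least 5 TPM, the 10 highest were led by matrix genes. Eln, elastin, stood at 173.8 TPM in Osr2 cells and 0.246 TPM in control cells (7.93), and Mfap4 at 60.3 TPM in Osr2 cells and 0.392 TPM in control cells (6.25). Lox, an enzyme that crosslinks elastin, stood at 607 TPM in Osr2 cells and 13.8 TPM in control cells (6.16). Aspn (5.85), Ccdc80 (5.82) and Itgbl1 (5.16) followed with Igfbp3, C1qtnf3 and Osr2. The entry of the microRNA Mir541 had 31 reads in Osr2 cells and 0 in control cells, at least 18.7-fold higher, though reads of a poly(A) library there come from a longer transcript than the mature microRNA.

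The 10 lowest held no member of the lists used here. Prkcb, a protein kinase C, stood at 0.661 TPM (71 reads) in Osr2 cells and 59.6 TPM (6647 reads) in control cells (−4.82), and Unc13c, a priming factor of synaptic vesicles, at 0.818 TPM in Osr2 cells and 38.2 TPM in control cells (−4.01). Aadac, a lipid deacetylase, had 2 reads in Osr2 cells and 348 reads in control cells, 96.2-fold lower (26.4 to 798), though 12 control reads were left after subtraction, where its difference of −3.86 became −1.34. Pga5, a secreted pepsinogen outside these lists, had 5 reads in Osr2 cells and 458 reads in control cells (−3.89). H2bu2 and H2bu1-ps, neighbouring histone H2B copies, had 0 reads in Osr2 cells and 148 and 108 reads in control cells, and near-identical copies can trade reads. The other 4 were short entries, Mir8120, Mir130b, LOC115490044 and LOC115488835, with at most 1 read in Osr2 cells and at most 61 reads in control cells.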

How the data were processed

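Poly(A) RNA of 4 libraries, 1 per group, was sequenced on a NovaSeq 6000. Per the series design text and the submitters' processing notes, reads were mapped to GRCm38.p6 with STAR 2.7.3a and counted per gene with featureCounts 2.0.0, and the authors deposited TPM. The design text names an Ensembl release 75 annotation, but 92.9% of symbols are RefSeq symbols, so positions come from the RefSeq annotation of GRCm38.p6. Whether counting used strand is not given in the sources used here, so overlapping genes cannot be told apart. The deposited TPM sum to 270515 in the Osr2 library and 346607 in the control library, which is below 1000000, so the totals behind them are not known.

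Of 27304 entries, 26 with a date for a name and 469 sharing 140 symbols were left out. A second table with 4 columns was not used. For each of the 18883 entries above 0, a gene length was found at which all 4 values came to whole reads (tolerance 0.001), and small genes of 1 RefSeq locus set what 1 read is worth. Totals of reads are lower limits.

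Differences are of log2(TPM + 1), with the Osr2 library first divided by the median of its gene ratios to control. For read subtraction, treated reads were removed, each rebuilt library was set to the TPM total of the control library, and the median ratio was taken again. All 1156 members of the 24 family lists had an entry. Named genes are Osr2 and Osr1, the 8 highest and 6 lowest of each class (at least 5 TPM, same sign on 3 scales), the 2 highest and 2 lowest of each list past a size of 1, and the 10 highest and 10 lowest of all genes. Others are said to be chosen after their values were seen, and 3 genes that this rule names are not reported here. The members, lists and rules were chosen with earlier results of these data known. With 1 library per group no test was made. Calculations used Python 3.11.15, numpy 2.4.6, scipy 1.17.1 and pandas 2.3.3, and steps were tested on simulated data. There the treated reads were drawn from the untreated ones, so the assumption on equal reads was not tested.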

Additional observations from a re-analysis of the deposited data

Results flagged for a closer look

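For 6 named genes the difference between Osr2 and control cells had one sign without SB431542 and the opposite sign with it, each by at least 1 on log2(TPM + 1) relative to the median gene. The difference between the 2 conditions was not tested, since each group is 1 library, and the Osr2 library with SB431542 held 1632195 reads, against 13152380 in the control library with it. Agtr2 differed by −1.74 with SB431542 (0 reads in Osr2 cells, 85 in control cells) and by 3.04 without it. Apod differed by −1.05 with it (0 and 30 reads) and by 4.09 without it. Ctsk differed by −1.96 with it (0 and 48 reads) and by 3.85 without it. Gas1 differed by −1.12 with it (5 and 195 reads) and by 4.18 without it, and Ogn by −1.12 with it (0 and 33 reads) and by 4.94 without it. Notch4 went the other way, with 1.28 with SB431542 (124 reads in Osr2 cells, 688 in control cells) and −1.71 without it. As deposited Notch4 was lower in Osr2 cells with SB431542 too, at 2.46 TPM against 10.7 TPM in control cells. For Notch4 the opposite sign thus holds only relative to the median gene. In the Osr2 library with SB431542 that gene stood at a ratio of 0.121 to the control library without it. Mitochondrial transcripts held 15.3% of the reads of the Osr2 library with SB431542.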

How the results depend on the processing

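No paired analysis was possible because each group holds 1 library, and for the same reason no replicate could be left out. On TPM as deposited, 1051 genes were higher and 4132 lower, 26 transcription factors higher and 49 lower, 53 receptors higher and 34 lower, and 39 secreted proteins lower. With a pseudocount of 5 these counts were 1318 and 557 genes, 43 and 9 transcription factors, 61 and 4 receptors, and 7 secreted proteins lower. Among rows of at least 5 TPM, 990 genes, 12 transcription factors, 7 receptors and 15 secreted proteins were lower, since fewer genes were tested. After read subtraction 45 transcription factors were higher and 42 lower. The other counts, and all counts with a pseudocount of 0.1, with no filter or with the median taken over all tested rows, stayed within 1.5 times those reported. Of 114 named genes of size at least 1, all kept their sign as deposited, and 113 did after read subtraction, where Tfrc differed by 0.21. For the highest and lowest genes of each class the choice required the same sign on these scales. A pseudocount or a filter cannot change a sign. A size of at least 1 was kept by 111 as deposited, 84 with a pseudocount of 5 and 104 after read subtraction. Depth limits genes of few reads, and no setting stands in for a replicate.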
